A study of Mus musculus with 502 samples.

Results

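A set of 6 genes of antibody sensing was followed cell by cell in immune cells of the mouse kidney: the Fc gamma receptors Fcgr1, Fcgr2b, Fcgr3 and Fcgr4, and the signalling adaptors Fcer1g and Tyrobp. They were taken by symbol, 6 of the 46603 gene rows of the count table. The study compared fresh kidneys with kidneys held whole in HypoThermosol FRS (HTS-FRS), an organ transplant preservative, at 4 °C, and asked whether the transcriptomes of single cells survive such storage. All kidneys came from CD1 mice, an outbred stock, of about 3 weeks of age, without transgene or disease, and live Cd45+ singlets (propidium iodide negative) were sorted after dissociation. The 502 cells fell into fresh (75 cells of pool IM793 and 81 of pool IM834, as defined below), 6 hour (76), day 1 (75), day 2 (78), day 3 (82) and day 4 (35). Whole kidneys were used up to day 2 and part kidneys on days 3 and 4. Cell titles carry 1 of 3 tags (IM790, IM793 and IM834) whose meaning is not stated, and cells sharing a tag are called a pool below. Fresh cells came from IM793 and IM834, 6 hour and day 2 cells from IM793, day 1 and day 3 cells from IM834, and day 4 cells from all 3. No animal is labelled, so each timepoint is 1 sample, and p-values measure the spread between summed libraries of these samples, which may be technical.

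Fc gamma receptors bind the constant part of immunoglobulin G and let macrophages, monocytes, neutrophils and NK cells take up or attack what antibody has coated. Fcgr1 (high affinity), Fcgr3 and Fcgr4 (lower affinity) are the activating receptors. They carry no signalling tail of their own and depend on the Fcer1g chain, whose immunoreceptor tyrosine-based activation motif (ITAM) recruits the kinase Syk once phosphorylated. Fcgr2b is the inhibitory receptor: its own tail holds the inhibitory counterpart (ITIM), which recruits the phosphatase encoded by Inpp5d, and it is the Fc gamma receptor of B cells. Tyrobp, also called DAP12, is a sister adaptor with an ITAM that serves other receptors of myeloid and NK cells, such as Trem2 and Clec5a. In the kidney, resident macrophages use these receptors when immune complexes lodge in the tissue.

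Of the 6 genes, 4 sit close together on chromosome 1 of GRCm38, the build of the deposited counts. Fcgr2b lies at chr1:170958617-170976547 (minus strand), Fcgr4 at chr1:171018920-171029761 (plus strand), Fcgr3 at chr1:171051174-171064935 (minus strand) and Fcer1g at chr1:171229572-171234365 (minus strand). Fcgr1 lies at chr3:96282909-96293969 (minus strand) and Tyrobp at chr7:30413760-30417585 (plus strand). All are protein-coding genes. The coding stretches that set the inhibitory receptor apart from the adaptors are shown 5′ to 3′ from the GRCm38 transcripts, with the tyrosine codons of each motif in capitals. The Fcgr2b stretch holds 1 tyrosine codon, at codon 319, and the adaptors hold a pair each, the first at codon 65 of Fcer1g and codon 92 of Tyrobp.

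Fcgr2b ITIM: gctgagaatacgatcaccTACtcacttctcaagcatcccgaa

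Fcer1g ITAM: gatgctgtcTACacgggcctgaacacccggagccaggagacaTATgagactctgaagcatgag

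Tyrobp ITAM: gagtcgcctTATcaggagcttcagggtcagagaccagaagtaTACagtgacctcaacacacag

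A second pair of sequences bears on the reading of the Fcgr2b values given below. The coding sequences of Fcgr2b and Fcgr3 are identical at 84.4% of 784 aligned bases and share an unbroken run longer than the 75 bases to which reads were trimmed. The run spans bases 278 to 406 of the Fcgr2b coding sequence, ends at base 391 of that of Fcgr3, and is shown in capitals with 10 flanking bases on each side.

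Fcgr2b: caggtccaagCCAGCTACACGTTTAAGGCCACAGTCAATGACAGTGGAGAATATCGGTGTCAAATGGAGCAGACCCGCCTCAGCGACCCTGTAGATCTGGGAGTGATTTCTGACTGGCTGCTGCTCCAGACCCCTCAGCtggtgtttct

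Fcgr3: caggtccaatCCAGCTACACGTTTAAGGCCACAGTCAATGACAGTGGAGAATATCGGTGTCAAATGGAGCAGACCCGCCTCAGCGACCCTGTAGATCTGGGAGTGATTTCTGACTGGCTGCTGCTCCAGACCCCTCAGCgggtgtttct

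Of the 1273 windows of 75 bases in the Fcgr3 transcript, 94 (7.38%) occur unchanged in Fcgr2b, so a read of that length from them cannot by itself be told apart, though its paired mate may lie outside the run. The other 4 members share no such window with any gene. Fcgr2b also shares 321 of its 3470 windows (9.25%) with 69 genes in all, and its exons partly lie under the antisense gene Gm38204, whose reads cannot be separated because counting ignored strand.

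Cells were placed by the gene that led among 4 markers (at least 10 counts and at least 80% of their summed counts), and cells without any of the 4 but with at least 10 counts of Csf1r formed the last gate. The macrophage gate of C1qb held 25.1% of the 502 cells and the T cell gate of Cd3e 21.1%. The B cell gate of Cd79a held 75 cells, the gate of Csf1r, a receptor of monocytes and macrophages, 72, and the neutrophil gate of S100a8 47. A single cell was mixed and 75 stayed ungated. Further markers bore out 4 of the names: all 5 T cell, all 5 B cell and all 5 neutrophil markers, and the 6 C1q macrophage markers in the table, had a read in no less than 25% of their gate. The Csf1r gate was broader, with 4 of 6 monocyte, 2 of 6 dendritic and 4 of 6 C1q macrophage markers read that often, and it is called by its gene. The neutrophil marker Csf3r was also read in 52.8% of its cells. Some markers of other cells were also read in over 25% of S100a8 cells, namely Plac8 (66%) and Ly6c2 (46.8%) of the monocyte list, Cd68 (31.9%) of the macrophage list and Cd3d (31.9%) of the T cell list, and the summed monocyte markers had a median of 1174 rpm there. The same held for Plac8 (45.3%), the T cell marker Cd2 (42.7%) and Apoe (25.3%) in the Cd79a gate, and for Gata3 (41.5%) and the NK marker Nkg7 (29.2%) in the Cd3e gate. The 5 mast cell and basophil markers were at 0 in all 5 gates. Total counts per cell ran from 1759 to 1895431 with a median of 695188. Intervals given for shares of cells are exact (Clopper-Pearson, 95%) and cover counting error only, since reads carried no molecular identifiers.

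The 6 genes marked out the 3 myeloid gates, and in different ways. Of all Fcgr1 counts, 99.2% fell in the C1qb, Csf1r and S100a8 gates together, and for Fcgr4, Fcgr3, Fcer1g, Tyrobp and Fcgr2b the shares were 98.8%, 95.7%, 93.2%, 89.9% and 78.8%. Fcgr2b was the least myeloid: 10.7% of its counts were in the Cd79a gate and 10.3% in ungated cells. The adaptors were read in nearly every myeloid cell, whereas each receptor was missing from a part of them.

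**Figure D1:**
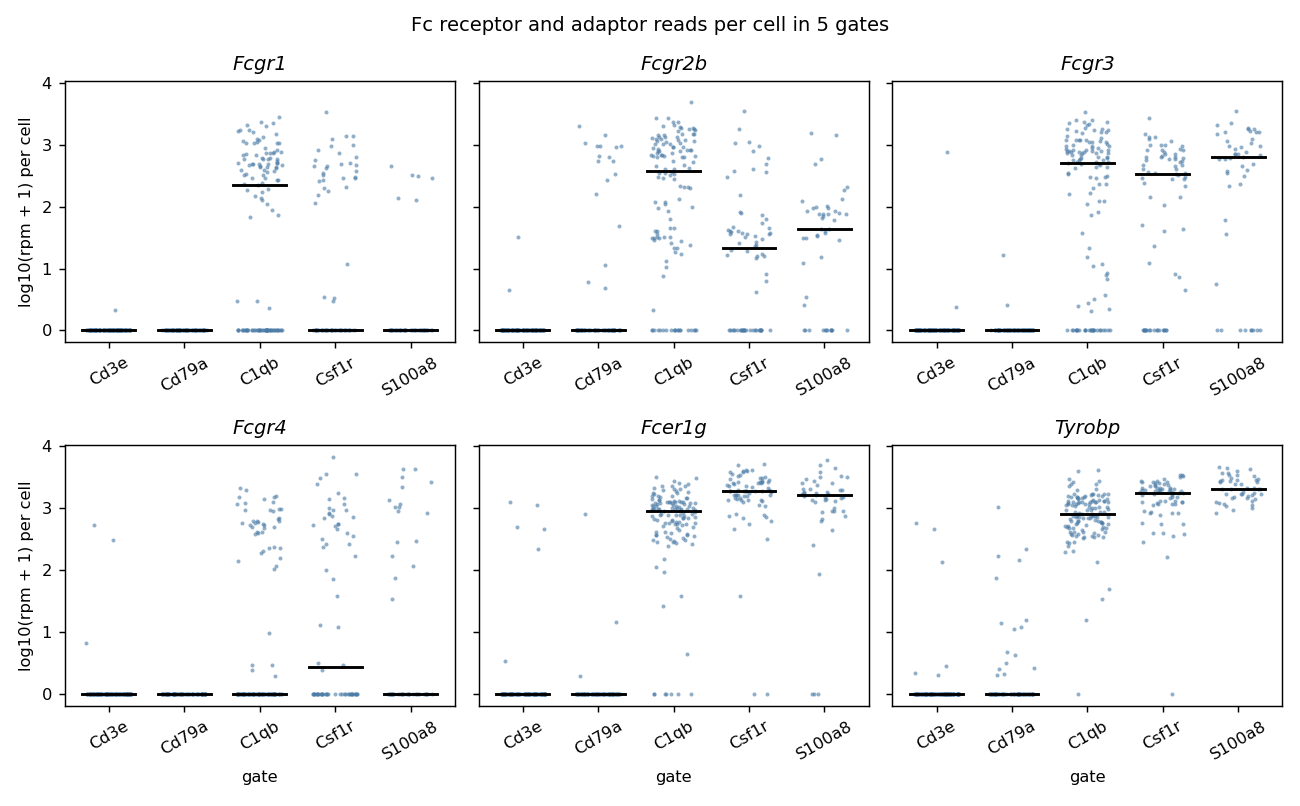
Level of each of the 6 genes as log10(rpm + 1), where rpm is reads of the gene per 1000000 counts of the cell, by gate; each point is a cell and the black line the median. Fcer1g and Tyrobp fill the C1qb, Csf1r and S100a8 gates, Fcgr1 is read mostly in the C1qb and Csf1r gates, and the Cd79a gate holds Fcgr2b in 18 of 75 cells.

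Fcgr1, the high-affinity receptor, was most frequent in the C1qb gate. It was read in 77 cells there (61.1%, interval 52 to 69.7%), with a median of 224.9 reads per 1000000 counts of the cell (rpm), an upper quartile of 589 and a highest value of 2791. In the Csf1r gate it was read in 33 of 72 cells (45.8%, 34 to 58%) and in the S100a8 gate in 6 of 47 (12.8%, 4.83 to 25.7%), so that the median cell of both had none. No Cd79a cell held a read (0 of 75, which allows a share of up to 4.80%), and 1 Cd3e cell held a single count. The Cd3e gate, which should lack the gene, had a median depth of 708409 counts against 633179 in the C1qb gate. Thinned to 100000 counts per cell, the C1qb share was 58.4%.

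Within the Csf1r gate, Fcgr1 went with Ly6c2, a marker of classical monocytes. It was read in 66.7% of the 33 cells with at least 10 Ly6c2 counts and in 28.2% of the 39 others. Fcgr4 was read more often with Ace, a marker of non-classical monocytes: it was read in 65% of the 40 cells with at least 10 Ace counts, at a median of 202.1 rpm, and in 34.4% of the 32 others. By Ly6c2 Fcgr4 was read in 57.6% and 46.2% of cells, and by Ace Fcgr1 in 40% and 53.1%. None of the 5 Csf1r-gate cells with at least 10 counts of Flt3, a dendritic cell gene, held an Fcgr4 read. These are descriptions of cells that share libraries, mostly fresh and 6 hour cells of pool IM793, without a split by pool or timepoint, and no test was made between them.

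Fcgr3, the common lower-affinity activating receptor, was the most evenly spread receptor over the myeloid gates. It was read in 79.4% of C1qb cells (71.2 to 86.1%), 75% of Csf1r cells (63.4 to 84.5%) and 80.9% of S100a8 cells (66.7 to 90.9%), at medians of 507, 329 and 632 rpm. Only 2 Cd3e cells and 2 of 75 Cd79a cells held a read. In the Csf1r gate it too went with Ly6c2, with a read in 93.9% of the cells with that gene and 59% of the rest.

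Fcgr4 was missing from many myeloid cells and high in others. In each myeloid gate the median cell had at most 1.74 rpm, yet the cells that had a read held it at a median of 546 rpm in the C1qb gate, 546 in the Csf1r gate and 1044 in the S100a8 gate. It was read in 36.5% of C1qb cells (28.1 to 45.6%), 51.4% of Csf1r cells (39.3 to 63.3%) and 36.2% of S100a8 cells (22.7 to 51.5%). The highest cell of the series, at 6808 rpm, was a Csf1r cell of the 6 hour timepoint. No Cd79a cell of 75 held a read. Fcgr1 was alike in the Csf1r and S100a8 gates, with medians of 0 rpm over all cells and of 376 and 301 rpm in cells with a read.

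Fcgr2b, the inhibitory receptor, was the one member at high level in both macrophages and B cells. It was read in 84.1% of C1qb cells (76.6 to 90%) at a median of 379 rpm and a highest value of 4921. The Cd79a gate held it in 18 of 75 cells (24%, 14.9 to 35.3%), and those 18 cells had a median of 590 rpm, close to the 640 rpm of the C1qb cells with a read. Csf1r and S100a8 cells were read often too (63.9% and 74.5%) but at medians of only 20.4 and 41.9 rpm.

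Among cells with at least 100 Fcgr3 counts, Fcgr2b counts stood at a median of 4.47% of the Fcgr3 counts in 40 Csf1r cells (quartiles 3.52 and 6.57%) and 4.75% in 34 S100a8 cells (4.20 and 6.32%). In 79 such C1qb cells the median was 55%, and the quartiles, 5.63 and 132.7%, lay far apart. A ratio between 2 and 15% was found in 29 of the 40 Csf1r cells, 25 of the 34 S100a8 cells and 24 of the 79 C1qb cells, and a ratio above 15% in 5, 6 and 54. Of the cells without any Fcgr3 read, 4 of 18 in the Csf1r gate and 1 of 9 in the S100a8 gate held Fcgr2b, against 12 of 26 in the C1qb gate. The part of the shared run in the low Fcgr2b counts was not tested. The B cell signal was free of Fcgr3: the 14 Cd79a cells with at least 100 Fcgr2b counts, at 158.4 to 1999 rpm, held 8668 Fcgr2b counts and 1 Fcgr3 count in all.

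**Figure D2:**
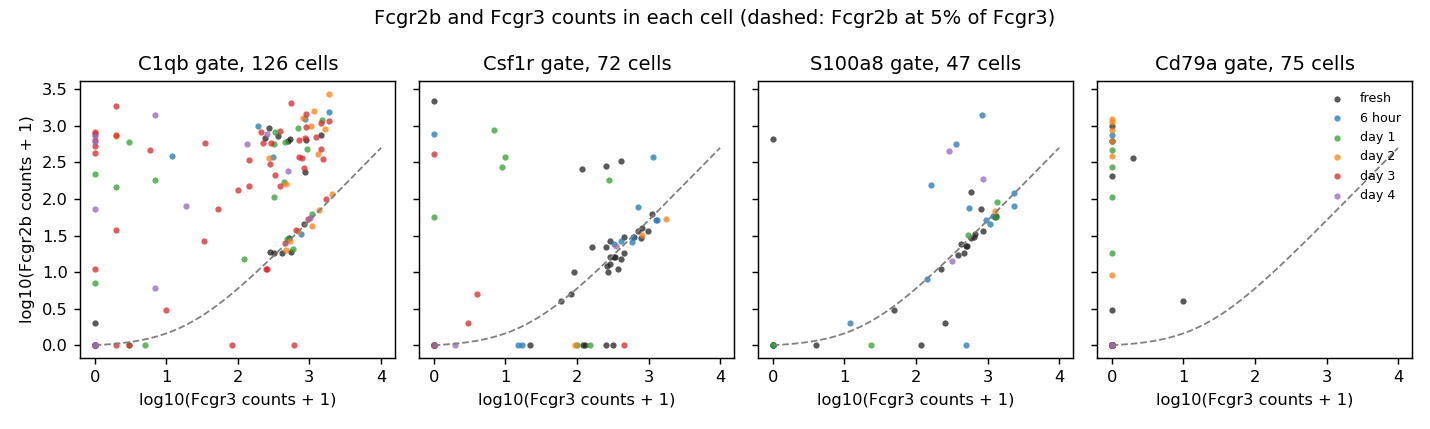
Fcgr2b against Fcgr3 as log10(counts + 1) in single cells of the C1qb, Csf1r, S100a8 and Cd79a gates, coloured by timepoint, with a dashed line where Fcgr2b equals 5% of Fcgr3. Most Csf1r and S100a8 cells with at least 100 Fcgr3 counts lie near that line (median ratios 4.47 and 4.75%), while C1qb cells spread above it (median 55%) and Cd79a cells with Fcgr2b have almost no Fcgr3.

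Compared per length of exon and over all timepoints, the inhibitory receptor took a larger part in the C1qb gate than in the Csf1r and S100a8 gates. Fcgr2b made up a median of 10.9% of a cell's summed Fc gamma receptor level per kilobase in the C1qb gate, 0.510% in the Csf1r gate and 1.26% in the S100a8 gate. The order did not hold at every timepoint, and no test was made. The Csf1r median was 59.7% on day 1 and 13.04% on day 3, over only 7 and 5 cells with a receptor read, and at most 0.478% at fresh, 6 hour and day 2, while the C1qb median was 3.18% in fresh cells and 6.41% on day 2. The C1qb medians per kilobase were 292 rpm for Fcgr3, 86.9 for Fcgr1, 65.5 for Fcgr2b and 0 for Fcgr4, against 1018 for Fcer1g and 1229 for Tyrobp. Lengths were the union of all annotated exons of a gene. For Fcgr2b that was 5790 bases, against 3544 in the transcript used for the windows above. Shares and order per kilobase depend on that choice.

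The adaptors were near universal. Fcer1g was read in 94.4% of C1qb cells (88.9 to 97.7%), 97.2% of Csf1r cells and 93.6% of S100a8 cells, with medians of 890, 1908 and 1655 rpm, and Tyrobp in 99.2%, 98.6% and 100%, with medians of 820, 1772 and 2027 rpm. Both were thus lowest at the median in the gate where the receptors Fcgr1 and Fcgr2b were highest. Fcer1g was read in 6 Cd3e cells and 3 of 75 Cd79a cells. Tyrobp was read in 16 of 75 Cd79a cells (21.3%), but at a median of 10.7 rpm in those cells, and in 9.33% after thinning. Fcer1g formed a median of 41.6% of the 2 adaptors' summed level per kilobase in the C1qb gate, 47.4% in the Csf1r gate and 38.8% in the S100a8 gate.

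How many of the 4 receptors a cell carried also differed in form between gates. Counting a receptor from 10 counts upwards, 41 C1qb cells carried 3 (32.5%) and 25 carried all 4 (19.8%), while 16 carried none. The Csf1r gate was flatter, with 11 cells at none, 19 at 1, 11 at 2, 17 at 3 and 14 at 4. S100a8 cells clustered at 2 receptors (20 of 47, 42.6%) and 1 cell carried all 4. In the Cd79a gate 15 of 75 cells (20%) carried 1 receptor and none carried more.

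**Figure D3:**
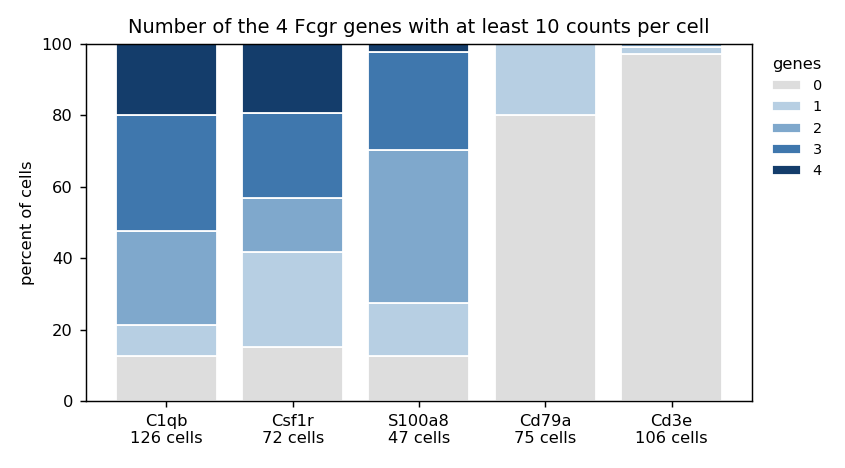
Stacked bars of the percent of cells in each gate that carried 0 to 4 of the Fc gamma receptor genes at 10 counts or more. The most frequent number was 3 in C1qb cells (32.5%) and 2 in S100a8 cells (42.6%), and 80% of Cd79a cells and 97.2% of Cd3e cells carried none.

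Over single cells the ties between members differed by gate and pair. Pearson's r of log2(rpm + 1) for Fcgr2b with Fcgr3 was 0.45 over the C1qb cells, 0.32 over 72 Csf1r cells and 0.64 over 47 S100a8 cells. Fcer1g with Tyrobp gave 0.21, 0.68 and -0.04 over the same cells. By Spearman's rank the Csf1r value was 0.36. Fcgr1 and Fcgr4 gave 0.24, 0.23 and -0.02. Cells share libraries and depth, and these values carry no p. In the C1qb gate r of the members with the log2 total count of the cell was between 0.13 and 0.27.

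The gates were then compared over libraries summed by gate and timepoint. For Fcgr1, the C1qb libraries held 388 (fresh), 611 (6 hour), 360 (day 1), 450 (day 2), 315 (day 3) and 781 (day 4) counts per 1000000 (CPM). The Csf1r libraries held 335, 364, 79.3, 0 and 2.42 CPM from fresh to day 3, and the S100a8 libraries 50.9, 49.5 and 0 CPM from fresh to day 1. All 3 S100a8 libraries thus lay below all C1qb libraries, and the Csf1r and C1qb ranges overlapped at fresh and 6 hour.

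Fcgr2b stood at 461, 788, 541, 638, 687 and 491 CPM in the 6 C1qb libraries, at 163.3, 115.7, 363, 28.1 and 201.2 in the 5 Csf1r libraries and at 93.4, 192.2 and 60.2 in the 3 S100a8 libraries. No C1qb library summed by timepoint overlapped with either. With the fresh pools apart, the C1qb library of pool IM793 held 267.8 CPM, within the Csf1r range. Fcgr3 held 684, 696, 640, 993, 667 and 209.1 CPM in the C1qb gate, 511, 522, 113.6, 900.4 and 218.6 in the Csf1r gate and 752, 780 and 1109 in the S100a8 gate, with wide overlap.

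For Fcgr4 the C1qb libraries ran 500.2, 184.9, 108.6, 448, 175.7 and 261.3 CPM, the Csf1r libraries 534, 1192, 0, 183.6 and 346, and the S100a8 libraries 436, 1039 and 32.5. Fcer1g ran from 807 to 1087 CPM in the C1qb gate and from 1371 to 2768 in the Csf1r gate, without overlap, and was 1702, 2102 and 779 in the S100a8 gate. Tyrobp ran from 812 to 1760 CPM in the C1qb gate, from 982 to 2192 in the Csf1r gate and from 1725 to 2682 in the S100a8 gate.

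Against the myeloid neighbours no member was called. The library ranges did not overlap for Fcgr2b and Fcer1g between the C1qb and Csf1r gates (2 of 6 members, 1.93% of all genes) and for Fcgr1 and Fcgr2b between the C1qb and S100a8 gates (2 of 6, 8.57% of all genes). With the fresh pools apart, the Fcgr2b ranges of the C1qb and Csf1r gates overlapped. In edgeR's quasi-likelihood test with timepoint as a block (24 libraries, 15218 genes, Benjamini-Hochberg adjustment), 0 of 6 members were called between the C1qb and Csf1r gates, where 0.0591% of all genes were. Fcgr1 differed by 2.40 ± 1.78 log2 (SE, adjusted p = 0.739) and Fcgr2b by 2.06 ± 1.53 (adjusted p = 0.739), both higher in the C1qb gate, and Fcer1g by -0.93 ± 1.38 (adjusted p = 0.964). Between the C1qb and S100a8 gates 0 of 6 were called (0.401% of all genes), with Fcgr1 at 4.40 ± 2.34 log2 (adjusted p = 0.495). Between the Csf1r and S100a8 gates 0 of 6 were called as well (0.046% of all genes). In these 3 comparisons 0 of 6 members had an unadjusted p under 0.05. DESeq2 also called 0 of 6, while it called a far larger share of all genes than edgeR, given in the section on processing. The median log2 difference of all genes was 0.95 and 1.80 for the C1qb gate against the Csf1r and S100a8 gates. On simulated counts of a fixed spread, the C1qb against Csf1r test called 1 of 50 genes changed 2-fold and 32 of 50 changed 4-fold. An uncalled member is thus not shown to be alike between these gates.

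Against Cd79a the 3 activating receptors and both adaptors were higher in the C1qb gate, while against Cd3e Fcgr3 and Fcer1g did not pass the test. Against Cd79a, 5 of 6 members were called, all higher in the C1qb gate, where 1.72% of all genes were called higher and 0.493% lower. Fcgr1 had 36120 counts against 0 and Fcgr4 22852 against 0, at least 7842-fold and at least 4961-fold higher when 3 counts over the Cd79a gate are taken as the floor (adjusted p = 0.00270 and 0.00118). Fcgr3 had 57312 counts against 10, 3733-fold higher by the sums (adjusted p = 0.00769). Fcer1g was 58.2-fold higher by the sums (adjusted p = 0.0359) and Tyrobp 38.7-fold (adjusted p = 0.0248). Of the 1493 Tyrobp counts of the Cd79a gate, 1199 fell in the day 2 library, where 1 cell held 1041 rpm. The Fcer1g sum of the Cd79a gate rested on 1 day 3 library at 245.3 CPM, while the others held 0 to 0.860 CPM, and within it on 1 cell of 799 rpm that also held the NK gene Ncr1 at 1865 rpm. The call for Fcer1g was lost without any 1 of fresh, 6 hour, day 1 or day 2 (adjusted p = 0.277, 0.0825, 0.187 and 0.0867), that for Tyrobp without fresh, 6 hour or day 1 (0.131, 0.0584 and 0.0728), and that for Fcgr3 without day 1 (0.0588). With a gate at 1 count none of these 3 was called (0.299 for Fcer1g, 0.160 for Tyrobp and 0.260 for Fcgr3), and a minimum of 10 cells per library ended the call for Tyrobp (0.116). With timepoint and pool as a block the call for Fcer1g was lost too (0.0608).

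Fcgr2b was the exception among B cells, with Cd79a libraries of 237.1, 173.9, 111.3, 164.2 and 0 CPM from fresh to day 3. It was 3.90-fold higher in the C1qb gate by the sums and was not called (2.00 ± 1.47 log2, adjusted p = 0.595). Against Cd3e it had 52091 counts against 36, 1285-fold, and was called (11.6 ± 2.40 log2, adjusted p = 0.00684), though not without fresh (adjusted p = 0.0742).

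Against Cd3e 4 of 6 members were called, all higher, where 1.98% of all genes were called higher and 0.677% lower. Besides Fcgr2b these were Fcgr1 (36120 counts against 1, adjusted p = 0.00383), Fcgr4 (38.2-fold by the sums, adjusted p = 0.0202) and Tyrobp (93-fold, adjusted p = 0.00570). The Fcgr4 call was lost without fresh or without day 2 (adjusted p = 0.0622 and 0.0819), with a gate at 1 count (0.0641), with only the 2 gates fitted (0.0928) and with a minimum of 10 cells (0.0876), where that of Tyrobp was lost too (0.143). Fcgr3, 61.2-fold by the sums, was not called (adjusted p = 0.0943), but was in 8 of 16 alternatives, among them the fit without day 3 (adjusted p = 0.000342) and that with timepoint and pool as a block (adjusted p = 0.0205). A single Cd3e cell of day 3 held 762 rpm. Fcer1g, 25.9-fold by the sums, was not called (adjusted p = 0.116), but was with a gate at 50 counts (adjusted p = 0.0383) and by DESeq2 (adjusted p = 0.00264).

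Between the Cd79a and Cd3e gates edgeR called 0 of 6 members (0.67% of all genes), 2 of 6 had an unadjusted p under 0.05, and DESeq2 called 3 (Fcgr2b, higher in the Cd79a gate, and Fcgr4 and Fcer1g, lower there). DESeq2 also called a far larger share of all genes than edgeR, given in the section on processing. Fcgr2b stood at 9.59 ± 2.41 log2 (adjusted p = 0.0752), and without day 3, whose 5 Cd79a cells held no Fcgr2b read, at 12.4 log2 (adjusted p = 0.000476). Fcer1g, lower in the Cd79a gate, was called there too (-7.50 log2, adjusted p = 0.0380), and with a gate at 50 counts (-7.66 log2, adjusted p = 0.0271). Fcgr2b was also called with timepoint and pool as a block (9.91 log2, adjusted p = 0.0280), with a gate at 50 counts (adjusted p = 0.00211) and with a minimum of 10 cells (adjusted p = 0.00534).

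**Figure D4:**
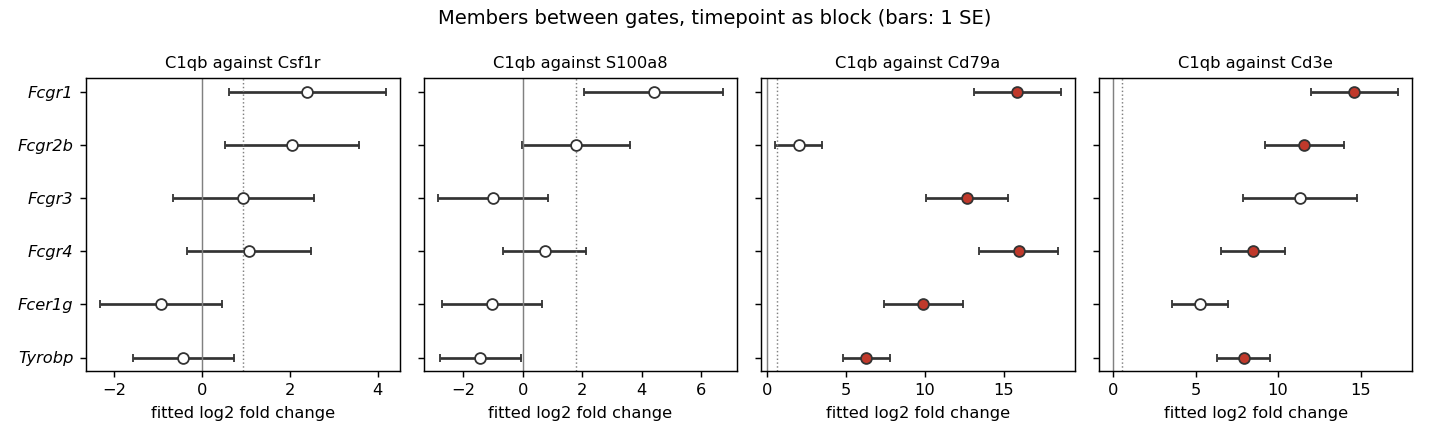
Log2 difference of each gene between the C1qb gate and the Csf1r, S100a8, Cd79a and Cd3e gates, from edgeR's quasi-likelihood fit, with bars of 1 SE and a scale of its own in each panel; filled points passed an adjusted p under 0.05, the solid line marks 0 and the dotted line the median of all genes. No member passed against the Csf1r or S100a8 gate, while 5 passed against Cd79a, with Fcgr2b at 2.00 ± 1.47 the exception, and 4 against Cd3e.

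Other genes of the pathway were read in the same fit. Among 9 tested other Fc receptors, Fcrls was higher in the C1qb gate than in the Cd79a gate (13.5 ± 2.94 log2, adjusted p = 0.0220, where 1.72% of all genes were called higher), and 3 were lower (0.493% of all genes), Fcer2a (the low-affinity IgE receptor of B cells), Fcmr (the IgM receptor) and Fcrla. Against Cd3e, Fcrls and Fcgrt, the neonatal Fc receptor that recycles antibody, were higher (15.2 and 12.7 log2, adjusted p = 0.00853 and 0.0402). The median over the 9 was -4.87 log2 against Cd79a, where all genes stood at 0.64.

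Of 15 tested receptors that pair with Fcer1g or Tyrobp, 4 were higher in the C1qb gate than in the Cd79a gate (1.72% of all genes) and 0 lower (0.493%): Clec4n (the fungal lectin Dectin-2, 13.5 ± 2.09 log2, adjusted p = 0.00102), Cd300ld (13.2 ± 2.31, adjusted p = 0.00171), Clec5a and Sirpb1a. Clec4n, Cd300ld and Clec5a were also higher than in the Cd3e gate. Trem2, the best known partner of Tyrobp, was not called (9.70 ± 3.22 log2 against Cd79a, adjusted p = 0.187). The list median was 8.19 log2 against Cd79a and 7.05 against Cd3e, beside 0.64 and 0.57 over all genes.

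Of 20 tested kinases, adaptors and effectors downstream of ITAMs, 7 were higher in the C1qb gate than in the Cd3e gate (1.98% of all genes) and 4 lower (0.677%). The 7 included Syk, the kinase that docks on phosphorylated ITAMs (8.52 ± 1.61 log2, adjusted p = 0.00349), and Lyn, the Src kinase that phosphorylates them (10.9 ± 1.77, adjusted p = 0.00102), besides Btk, Lat2, Blnk and Gab2. The 4 lower were Zap70, Lck, Lat and Plcg1, which serve the T cell receptor. Against Cd79a 17 of the 20 were not called, 2 were higher (Lcp2 and Gab2) and 1 lower (Lck), while Syk stood at -2.13 ± 1.17 (adjusted p = 0.461). Of the other ITAM adaptors, 7 tested, Cd79b was higher against Cd3e and Cd247, Cd3e, Cd3d and Cd3g were lower, the gate gene Cd3e among them by construction. Of 11 tested genes of the inhibitory arm, 2 were higher against Cd79a (Sirpa and Cd300a, beside 1.72% of all genes) and 4 against Cd3e (Sirpa, Cd300a, Dok3 and Pirb, beside 1.98%). Inpp5d, the phosphatase partner of Fcgr2b, stood at -0.06 ± 0.64 log2 between the C1qb and Csf1r gates (adjusted p = 1). None of the 5 lists had a called gene between those gates by edgeR. Of the other ITAM adaptors, Cd3d was lower in the C1qb than in the S100a8 gate (-14.4 ± 2.64 log2, adjusted p = 0.0200, 0.401% of all genes called). It was also lower in the Csf1r than in the S100a8 gate (-16.6 ± 2.83 log2, adjusted p = 0.0423, 0.046% of all genes).

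By likeness of pattern over the 24 libraries (Pearson's r of log2(CPM + 1), members left out), Fcgr1 was nearest to Pak1 (0.985), Sdc3 (0.984) and Clec4a2 (0.982), and Fcgr2b to Cd86 (0.889), Cybb (0.889) and Themis2 (0.868). Fcgr3 was nearest to Ralb (0.948), Ifitm2 (0.948) and Lilrb4a (0.922), and Fcgr4 to C5ar1 (0.901), Pla2g7 (0.892) and Pilra (0.887). Fcer1g was nearest to Plin2 (0.913), Ifitm2 (0.898) and Lyz2 (0.887), and Tyrobp to Lst1 (0.939), Lilrb4a (0.938) and Slc11a1 (0.937). The libraries share timepoints and fall into gates, so these values describe the gates as much as the genes.

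Preservation was followed first in the C1qb gate, the one gate with at least 5 cells at every timepoint (16 fresh, 6 at 6 hour, 22 on day 1, 15 on day 2, 54 on day 3 and 13 on day 4). The median cell held Fcgr1 at 336 (fresh), 344 (6 hour), 241.9 (day 1), 434 (day 2), 0 (day 3) and 675 rpm (day 4). Its share of cells with a read was lowest on day 3, at 42.6% (29.2 to 56.8%), against 87.5% of fresh cells (61.7 to 98.4%).

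Fcgr3 stood at medians of 647, 517, 486, 955, 472 and 7.50 rpm in the same order, and day 4 was set apart. On day 4, 7 of 13 cells held a read (53.8%, 25.1 to 80.8%), 1 cell reached 2222 rpm and the next 432. Fcgr2b ran 171.2, 957, 245.01, 396, 447 and 207.1 rpm and Fcgr4 102.7, 0, 0, 113.97, 0 and 0 rpm. The medians of Fcgr2b show no order in time.

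The adaptors varied less in the share of cells with a read, but Tyrobp did not vary less in level. Summed by timepoint, its libraries ran from 812 to 1760 CPM, and those of Fcgr2b from 461 to 788 CPM. By medians over cells, Fcer1g ran 938, 791, 555, 973, 957 and 517 rpm and Tyrobp 790, 1663, 589, 1242, 704 and 991 rpm, and neither was read in under 90.7% of the cells at any timepoint.

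Measures of cell quality differed between timepoints in this gate. Ptprc, the gene of Cd45, was read in 100% of fresh cells, 83.3% at 6 hour, 95.5% on day 1, 100% on day 2, 77.8% on day 3 and 53.8% on day 4. The median number of genes per cell fell at each step, from 2531 in fresh cells to 1694 on day 3 and 1291 on day 4. The summed C1q macrophage markers had medians of 21149, 24115, 11563, 20780, 15844 and 20191 rpm in the same order, lowest on day 1, where Tyrobp was also at its lowest median. Fcgr1 was read in 67% of the cells with a Ptprc read and in 30% of the 20 without, Fcgr2b in 89.6% and 55%, and Tyrobp in 99.1% and 100%. The part of cell quality in the member levels was not tested. The 7 day 4 cells with a Ptprc read held Fcgr3 at a median of 14.4 rpm and a highest value of 432.

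**Figure D5:**
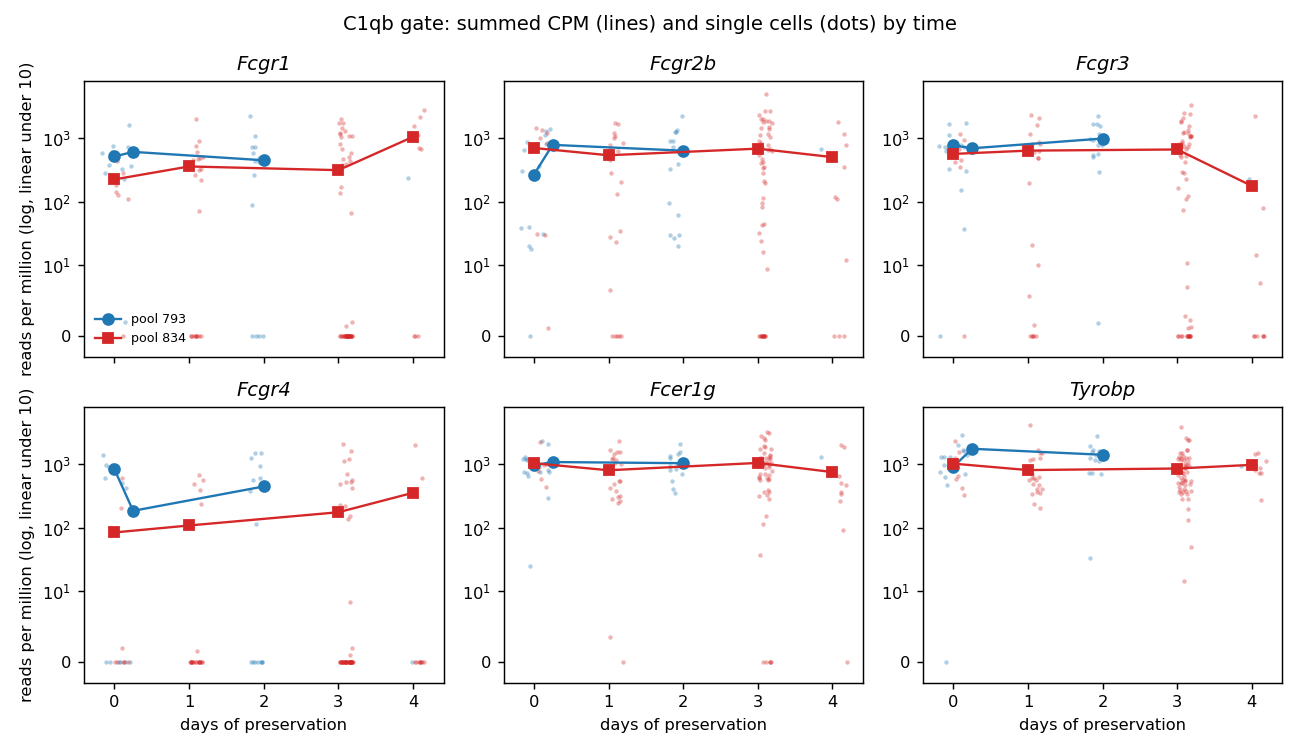
The 6 genes in the C1qb gate by days of preservation, on a log axis (linear under 10); small dots are single cells (rpm), and large symbols joined by lines are summed libraries (CPM) of pools IM793 (blue circles) and IM834 (red squares). The Fcgr3 library of day 4 is the lowest of its 7, at 177.03 CPM, while the Fcer1g libraries lie between 754 and 1087 CPM.

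A slope per day was tested in the C1qb gate over 7 libraries of timepoint and pool, with pool as a block. Fresh entered the slopes as a library for each pool, and whether these are separate animals is not labelled. The Fcgr1 libraries held 518, 611 and 450 CPM in pool IM793 (fresh, 6 hour and day 2) and 224.9, 360, 315 and 1055 CPM in pool IM834 (fresh, day 1, day 3 and day 4). The slope was 0.35 ± 0.20 log2 per day, and 0.06 without day 4. Those of Fcgr4, Fcgr2b, Tyrobp, Fcer1g and Fcgr3 were 0.36 ± 0.28, 0.01 ± 0.18, 0.02 ± 0.11, -0.03 ± 0.12 and -0.13 ± 0.22, the last turning to 0.16 without day 4. None was called (adjusted p = 1 for each), nor was any of the 11752 genes by edgeR (0% called), though 1.74% had an unadjusted p under 0.05 and DESeq2 called 778, none of them a member. The slopes of the adaptors were the most narrowly bounded. On simulated counts of a fixed spread, this fit called 0 of 50 genes changed 2-fold from fresh to day 4. It called 1 of 50 changed 4-fold and 29 of 50 changed 16-fold, so an uncalled slope does not show a steady level.

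In the Cd3e gate 4 members could be tested over 6 libraries and none was called (0% of 11158 genes by edgeR, 748 at an unadjusted p under 0.05, 1282 by DESeq2, adjusted p between 0.485 and 0.992 for the members). The other gates held fewer than the 6 libraries set as the minimum for a slope.

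Single timepoints were compared with fresh cells of the same pool as ratios of sums, with 1 sample on each side and no test. A gene entered only if each of its sums reached 50 counts. Between 6 hour and fresh in the C1qb gate, Fcgr2b held 788 CPM (exact Poisson interval 765 to 811) against 267.8 (255.4 to 281), a log2 ratio of 1.56. Fcgr4 held 184.9 (174.02 to 196.4) against 831 (809 to 854), a log2 ratio of -2.17. These 2 of 6 members were past 2-fold where 47.7% of all genes were. The intervals cover counting error only. Between day 2 and fresh 1 of 6 was (Fcgr2b at 1.25, 46.6% of all genes), between day 1 and fresh 0 of 6 (48.1%), and between day 3 and fresh 1 of 6 (Fcgr4 at 1.06, 48%).

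On day 4, 3 of 6 members were past 2-fold relative to fresh, near the share of all genes (51.9%): Fcgr1 at 2.23, Fcgr4 at 2.08 and Fcgr3 at -1.68. The direction of Fcgr4 did not hold: on day 4 it was -0.28 by the mean of log2(rpm + 1) over cells and -0.49 against the fresh cells of both pools, and on day 3 it was -1.51 against those. A single cell gave 97.1% of the day 4 Fcgr3 counts and another 73.6% of the Fcgr4 counts. Between day 2 and 6 hour Fcgr4 was past 2-fold (1.28, 47.6% of all genes) and between day 3 and day 1 none was (46.7%). Over all 7 comparisons 8 of 42 member values were past 2-fold by sums (47.7% of all genes), but 21 of 42 by the mean of log2(rpm + 1) over cells (40.5% of all genes).

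The 2 pools of fresh cells gave a yardstick for such ratios. Their 8 and 8 C1qb cells differed by 3.3 log2 in Fcgr4 (831 CPM in pool IM793 against 84.3 in pool IM834), by -1.39 in Fcgr2b (267.8 against 704) and by 1.20 in Fcgr1 (518 against 224.9), so 3 of 6 members and 49% of all genes were past 2-fold without any difference in storage. Fcgr3 differed by 0.45, Fcer1g by -0.11 (966 against 1042 CPM) and Tyrobp by -0.16 (915 against 1025). The largest change of Fcgr4 with time in this gate, -2.17, was smaller than its difference between fresh pools.

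In the Csf1r gate, cells with Fcgr1 or Fcgr4 were mostly fresh or 6 hour cells of pool IM793. Fcgr1 was read in 24 of 33 fresh cells (72.7%, 54.5 to 86.7%), 6 of 14 at 6 hour, 2 of 11 on day 1, 0 of 5 on day 2 and 1 of 6 on day 3. Fcgr4 was read in 23 of 33 and 9 of 14 cells at fresh and 6 hour, with medians of 266.5 and 298 rpm, and in 0 of 11 on day 1 (which allows up to 28.5%), 2 of 5 and 2 of 6 afterwards. The fresh and 6 hour cells of this gate differed from the later ones in makeup: the summed monocyte markers had medians of 5653 and 6002 rpm at fresh and 6 hour and of 2078, 1697 and 2503 on days 1 to 3, while the summed C1q macrophage markers stood at 1215 and 1421 and then at 2551, 6622 and 4480 rpm. Of the fresh cells 29 of 33 came from pool IM793, with Fcgr1 in 23 and Fcgr4 in 22 of them, whereas the 4 of pool IM834 held 1 count of each gene in all. The day 1 cells were all of pool IM834, so pool, time and makeup cannot be told apart here. The adaptors were read throughout, Fcer1g with medians of 1921, 2511, 1378, 2647 and 1721 rpm and Tyrobp with 1767, 2200, 835, 2397 and 2026.

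Within pool IM793, Csf1r cells of 6 hour held Fcgr2b at 1.12 and Fcgr4 at 1.03 log2 relative to fresh, 2 of 6 members past 2-fold where 41.7% of all genes were. By the mean of log2(rpm + 1) both turned, to -0.0879 and -0.31. On day 2, Fcgr4 stood at -1.67 against fresh (1 of the 5 members that passed the count minimum, 58.5% of all genes), with 99.8% of its day 2 counts from 1 cell. Against 6 hour, Fcgr4 stood at -2.70 and Fcgr2b at -2.04 (2 of 5, 56.5% of all genes). Fcgr1 did not pass the minimum because its 5 day 2 cells held no count, against 366 CPM in fresh and 364 CPM in 6 hour cells, at least 364-fold and 362-fold lower when 3 counts are taken as the floor. Between day 3 and day 1 Tyrobp stood at 1.02 (1 of 4, 56.3%). The members left out there were Fcgr1, which went from 382 counts (79.3 CPM) to 5 (2.42 CPM), and Fcgr4, which went from 0 counts to 715 (345.8 CPM), at least 555-fold higher by the same floor. In the S100a8 gate Fcgr4 stood at 1.25 and Fcgr2b at 1.04 between 6 hour and fresh (2 of 6, 49% of all genes), and Fcgr3 medians were 694, 597 and 824 rpm at fresh, 6 hour and day 1. Summed monocyte markers of that gate had medians of 2095, 885 and 612 rpm in the same order, and neutrophil markers 24145, 25552 and 17227. The part of this makeup was not tested. By sums Fcer1g was past 2-fold in none of these 12 comparisons over the 3 myeloid gates, but by the mean of log2(rpm + 1) it was in 5, all lower at the later timepoint. By the same mean, 11 of 20 member values were past 2-fold in the Csf1r gate, against 6 of 20 by sums, and 0 of 6 in the S100a8 gate.

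Cells with NK genes stood outside the gates. Of the 14 ungated cells with at least 10 counts of Ncr1 or Klrb1c, 12 held Fcer1g (median 376 rpm) and 11 Tyrobp (median 892 rpm), while Fcgr3, the Fc receptor known for NK cells, was read in 2, Fcgr2b in 3, Fcgr4 in 1 and Fcgr1 in 0. Over all 75 ungated cells the adaptors went together, with r of 0.78. The 2 Cd3e cells with the highest Fcgr3 and Fcer1g values, 762 rpm of Fcgr3 in a day 3 cell and 1254 rpm of Fcer1g in a 6 hour cell, also held Klrb1c (1570 and 2567 rpm) and Ncr1 (340.2 and 2188 rpm). A pair of Cd3e cells with Fcgr4 (303 and 533 rpm) held Lyz2, a myeloid gene, at 1215 and 2813 rpm.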

How the data were processed

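Cd45+ kidney cells of CD1 mice were sorted singly, and full-length cDNA was amplified over 21 PCR cycles and kept from 2 ng upwards. The authors trimmed reads to 75 bp with fastx_trimmer, removed duplicates with picard, used STAR for alignment to GRCm38, took gene counts from HTSeq in intersection-strict mode without regard to strand, and dropped cells under 1000 reads. The sources used here give no versions of these tools. The deposited counts are whole reads per gene and cell, without normalization. ERCC controls (96 rows, 0.000185% of counts) and a vector row (0.139%) stayed out of library sizes. Rn18s.rs5 held 6.6% of counts. No 2 of the 502 columns were identical.

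The 6 members and all gene lists were chosen with earlier results of these data known. Levels were expressed per 1000000 gene counts of the cell (rpm). Cells were gated on Cd3e, Cd79a, C1qb and S100a8 (10 counts, 80% of their sum) and then on Csf1r. Counts were summed per gate and timepoint (at least 5 cells, 24 libraries) and compared with edgeR 4.0.16 (quasi-likelihood, TMM, timepoint block, genes with at least 50 counts, Benjamini-Hochberg, adjusted p under 0.05) in R 4.3.3, after tests on simulated data. Slopes per day were fitted, with pool as a block, for gates with at least 6 libraries of timepoint and pool. Timepoints of 1 pool were compared as ratios of sums, a 2-fold difference being marked for genes with at least 50 counts on both sides, with no test. For the lists, members tested, called genes and medians are given. The named genes were the members, genes of the lists and the 3 genes of nearest pattern to each member. DESeq2 1.42.0, other gate thresholds, cell minimums, filters and leaving out each timepoint were alternatives. The timepoint and pool block, the restriction to cells with a Ptprc read and the fresh pool yardstick were added after the data were seen. Depth per cell was 1759 to 1895431 counts, and 8 cells under 100000 were left out of thinning. 1 result for a listed gene is not reported here.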

Additional observations from a re-analysis of the deposited data

Results flagged for a closer look

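In 5 of 19 sets of summed libraries screened for a single library far from the others, 1 stood apart. The nominal rate of the rule, 1 in 20, assumes normal values, which sums filled by 1 cell are not. No share over all genes is at hand, so the count is a description. Fcgr3 was lowest on day 4 of the C1qb gate, at 209.1 CPM against 640 to 993 at the other timepoints. Fcgr3 in the Cd3e gate reached 201.6 CPM on day 3, from 1 cell that also held Klrb1c and Ncr1, with no more than a trace elsewhere. Fcgr2b in the Cd79a gate was at 0 CPM on day 3 (5 cells) against 111.3 to 237.1 CPM. Fcer1g in that gate was at 245.3 CPM on day 3, again from 1 cell with Ncr1, against at most 0.860. Fcgr4 in the Csf1r gate was at 0 CPM on day 1 (11 cells) against 183.6 to 1192.

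Fcgr4 moved in opposite directions between gates over the same storage time by ratios of sums. Between 6 hour and fresh its log2 ratio was -2.17 in the C1qb gate, 1.03 in the Csf1r gate and 1.25 in the S100a8 gate, and between day 2 and 6 hour it was 1.28 in the C1qb gate and -2.70 in the Csf1r gate. By the mean of log2(rpm + 1) over cells the 6 hour value of the Csf1r gate was -0.31, the same sign as in the C1qb gate, and fresh C1qb cells of the 2 pools differed by 3.3 log2 in Fcgr4. The difference between gates was not tested, each side being 1 sample.

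Among the 61 ungated cells without NK genes, which enter no comparison, Tyrobp was read in 39.3% (27.1 to 52.7%), Fcer1g in 34.4% (22.7 to 47.7%), Fcgr2b in 11.5% (4.74 to 22.2%) and Fcgr3 in 6.56% (1.82 to 15.9%). In the Cd3e gate the adaptors were read in 5.66% each.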

How the results depend on the processing

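No paired analysis was possible because the labels give no replicate numbers, beyond the timepoint block of the gate comparisons and the pool block of the slopes. Fcgr1 against both lymphoid gates and Fcgr4 against Cd79a were called in 16 of 16 alternatives, Fcgr2b and Tyrobp against Cd3e in 15, Fcgr3 against Cd79a in 14, Fcgr4 against Cd3e and Tyrobp against Cd79a in 11 and Fcer1g against Cd79a in 10. Over all members and gate comparisons 20 calls were lost and 19 gained. Libraries held as few as 5 cells, and no fit was repeated at another depth. A minimum of 10 cells left too few libraries for slopes and for the C1qb against S100a8 comparison, which were not run. The cause was not tested for any change listed here. Without 1 timepoint, members called ranged from 2 to 5 against Cd3e, from 2 to 5 against Cd79a and from 0 to 2 for Cd79a against Cd3e. A gate at 1 count gave 2 against Cd79a. For Cd79a against Cd3e, DESeq2 gave 3, a gate at 50 counts 2, and 10 cells or the added timepoint and pool block 1.

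The percentage of all genes called, without 1 timepoint, ranged from 1.43 to 2.72 (C1qb against Cd3e, 2.65 in all), 1.06 to 2.22 (Cd79a, 2.21), 0.0204 to 0.0737 (Csf1r, 0.0591), 0.0612 to 0.369 (S100a8, 0.401), 0.344 to 0.693 (Cd79a against Cd3e, 0.67) and 0 to 0.0605 (Csf1r against S100a8, 0.046). By DESeq2 it was 22.9, 23.5, 17, 24.1, 19.2 and 14.5, and 6.89 and 12.2 for the slopes in the C1qb and Cd3e gates. The share of calls that were higher went from 32.8% to 82.6% (C1qb against S100a8), 0% to 74.1% (Csf1r against S100a8) and 68.6% to 45.7% (Cd79a against Cd3e) by DESeq2, whose medians over all genes lay -0.242 (Csf1r) and -0.449 (S100a8) from those of edgeR, and its size factors in edgeR moved the median by 0.123 against Cd3e. With 10 cells the percentage was 0.972 (Cd3e), 1.19 (Cd79a), 0 (Csf1r), 0.342 (Cd79a against Cd3e) and 0 (Csf1r against S100a8), and with only 2 gates fitted 0.256 (Csf1r), 1.65 (S100a8) and 0.913 (Csf1r against S100a8). A gate at 1 count gave 1.22 (Cd79a), 0.0195 (Csf1r) and 0.00651 (Csf1r against S100a8), and exclusive gates 0.105 (C1qb against Csf1r) and 0.138 (Csf1r against S100a8). The last comparison gave 0.0789 with DESeq2 size factors, 0.0823 without a filter and 0.0858 with the added block.

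Member changes past 2-fold between timepoints numbered 8, 6 and 2 in the C1qb, Csf1r and S100a8 gates by sums of at least 50 counts, 21, 11 and 0 by mean log2(rpm + 1), and 10 in the Csf1r gate from 1 count. With TMM factors the Csf1r gate held 4, where 49.5% of all gene values were past 2-fold. Of all gene values in these gates 47.7, 50.3 and 49% were past 2-fold by sums, 40.5, 41.6 and 30.6% by mean logs and, in the Csf1r gate, 73.4% from 1 count. The Csf1r-gate correlation of the adaptors was 0.36 by Spearman's rank. Fitted differences that turned sign were uncalled on both sides. The slopes over Ptprc cells also lack day 4, which then held under 5 cells of a pool. Fcer1g in C1qb against Csf1r was 0.19 with a gate at 1 count and 0.67 with 10 cells, and in Csf1r against S100a8 0.21 (gate at 50), 0.35 (10 cells), 0.33 (Ptprc cells) and -0.48 to 0.35 without 1 timepoint. Its slope was 0.014 (gate at 1), 0.069 (Ptprc cells), 0.072 (without day 4) and -0.074 to 0.072 without 1 library. Fcgr2b in Csf1r against S100a8 was 0.35 (gate at 1), 0.083 (gate at 50), 0.25 (only 2 gates), 0.069 (Ptprc cells) and -1.38 to 0.61 without 1 timepoint, and its slope -0.0273 by DESeq2 and by its size factors and -0.061 to 0.14 without 1 library. The Fcgr3 slope was 0.17 (Ptprc cells), 0.16 (without day 4) and -0.29 to 0.16 without 1 library. Fcgr4 was -0.025 to 1.77 (C1qb against Csf1r) and -0.13 to 1.35 (S100a8) without 1 timepoint, -0.56 against S100a8 with only 2 gates, and 0.29 in Csf1r against S100a8 with a gate at 1 count, and its slope was -0.043 without the pool block. Tyrobp was 0.063 in C1qb against Csf1r with a gate at 50, and its slope -0.00603 by DESeq2, -0.00604 with its size factors, -0.023 (Ptprc cells), -0.037 (no pool block) and -0.019 to 0.060 without 1 library. Of the untested ratios, the 6 hour value in the Csf1r gate was -0.0879 for Fcgr2b and -0.31 for Fcgr4 by mean logs and -0.50 for Fcgr2b against all fresh cells. In the C1qb gate Fcgr4 was -1.51 on day 3 against all fresh cells, and on day 4 -0.28 by mean logs and -0.49 against all fresh cells.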

Other observations

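Ungated cells could be described by further marker genes. Of 13 ungated cells with at least 10 counts of Flt3, a gene of dendritic cells and progenitors, 11 held Fcer1g (median 207.6 rpm), 12 held Tyrobp (median 559 rpm) and 5 held Fcgr2b. All 9 ungated cells with at least 10 counts of Itgax, the gene of the dendritic cell integrin CD11c, held both adaptors, and 5 held Fcgr2b. The 36 ungated cells with at least 10 counts of Gata3, a transcription factor of T cells and innate lymphoid cells, held Fcer1g in 8 and Tyrobp in 7, and the 15 with Il1rl1, the receptor of interleukin 33, held each in 2. These cells overlap between markers.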
